A study of Homo sapiens with 6 samples.

Results

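Target genes of the Wnt pathway, most of them negative feedback genes, were compared between CD133-positive and CD133-negative HCT116 cells. The 10 genes were RNF43, ZNRF3, AXIN2, NKD1, NOTUM, DKK1, DKK4, APCDD1, LEF1 and TCF7; they were chosen by name, and each gene was read from its probe set of highest mean. Of these, 9 were measured, each by 1 probe set, among 18404 genes in all. TCF7 had no probe set of its own in the annotation used and was not analysed here. HCT116 is an established human colorectal carcinoma line that carries a mutant CTNNB1, the gene of beta-catenin, and both groups are cells of that line. The cells were sorted on CD133, a surface glycoprotein encoded by PROM1, and 3 arrays were made from CD133-positive and 3 from CD133-negative cells, numbered as repetitions 1 to 3 in each group. Whether repetitions were separate cultures or separate sorts is not in the labels. The p-values therefore cover the spread between these arrays only, and that spread may be technical.

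In Wnt signalling a secreted ligand binds a Frizzled receptor with LRP5 or LRP6, the complex that destroys beta-catenin is held back, and beta-catenin joins TCF and LEF factors on DNA to switch on target genes. Several of those targets encode brakes on the pathway, which makes a feedback loop. RNF43 and ZNRF3 are membrane ubiquitin ligases that clear Frizzled from the cell surface, AXIN2 is a scaffold of the destruction complex, and NKD1 binds Dishevelled inside the cell. NOTUM is a secreted enzyme that strips the lipid from Wnt ligands, DKK1 and DKK4 are secreted antagonists of LRP5 and LRP6, and APCDD1 is a membrane inhibitor. LEF1 and TCF7 are the DNA-binding partners of beta-catenin. In intestinal crypts some of these genes are used as readouts of Wnt activity. A beta-catenin mutation acts downstream of the receptors that RNF43, ZNRF3, NOTUM and the DKK proteins restrain.

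All values are log2 signals, so a difference of 1 is a doubling, and every difference is the CD133-positive mean less the CD133-negative mean. A signal depends on the probes, so levels were not compared between genes. The array medians lay between 5.44 and 5.60. PROM1 was 2.77 higher in CD133-positive cells (SE 0.16 with repetition as a block), in the direction of the labels. Of the colorectal epithelial markers, 7 of 10 lay above the median signal of all probe sets, against 1 of 9 leukocyte, 1 of 10 fibroblast and 1 of 8 endothelial markers. The 3 exceptions were CD68, COL1A1 and CLDN5. The mean signal of the leukocyte markers was 4.22 to 4.38 on the CD133-positive and 4.18 to 4.56 on the CD133-negative arrays. For fibroblast markers these ranges were 4.16 to 4.28 and 4.15 to 4.39, and for endothelial markers 4.09 to 4.21 and 4.02 to 4.18. In these 4 marker lists limma called 0 genes in either fit. It called 0.369% of all genes with the block and 0.00543% with group as the only term. At an unadjusted p under 0.05 with the block there were 3 epithelial and 1 endothelial marker. That was 4 of 37 in all, against 11.6% of all genes. The markers of smallest block p in each list were the keratin KRT18 (-0.48) and the cadherin CDH1 (0.40), CD68 (0.22) and MS4A1 (-0.28), COL1A1 (-0.19) and COL3A1 (-0.21), and CD34 (0.24) and PECAM1 (-0.12). The part of other cells in the results was not tested.

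RNF43 fell in CD133-positive cells, and it was the member with the largest difference of the 9. Its probe set (8016994) read 7.28, 7.30 and 7.46 in CD133-positive repetitions 1, 2 and 3, and 8.30, 8.16 and 8.42 in the CD133-negative ones. Every CD133-positive array was lower than every CD133-negative array, and the nearest values of the groups were 7.46 and 8.16. The means were 7.34 ± 0.10 and 8.29 ± 0.13 (SD, n = 3 each), a log2 difference of -0.95, so the signal was 1.93-fold higher in CD133-negative cells. Within repetitions 1, 2 and 3 the difference was -1.03, -0.87 and -0.96. Of all genes, 50 had a larger absolute difference. Fewer cells with the transcript and less transcript per cell cannot be told apart in these bulk samples.

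With repetition as a block, limma gave RNF43 an adjusted p of 0.0205 (SE 0.0822, 95% interval -1.15 to -0.75). It was the 1 member of 9 called in that fit, and 0.174% of all genes were called lower there and 0.369% in either direction. With group as the only term its SE was 0.12 and its limma adjusted p 0.142, and 0 of 9 members were called against 0.00543% of all genes. The difference lay between -1.02 and -0.89 under all 21 alternatives tried. The call with the block ended when both arrays of repetition 1 (adjusted p = 0.0559), 2 (0.0701) or 3 (0.141) were left out, and with control rows of the table included (0.109).

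**Figure D1:**
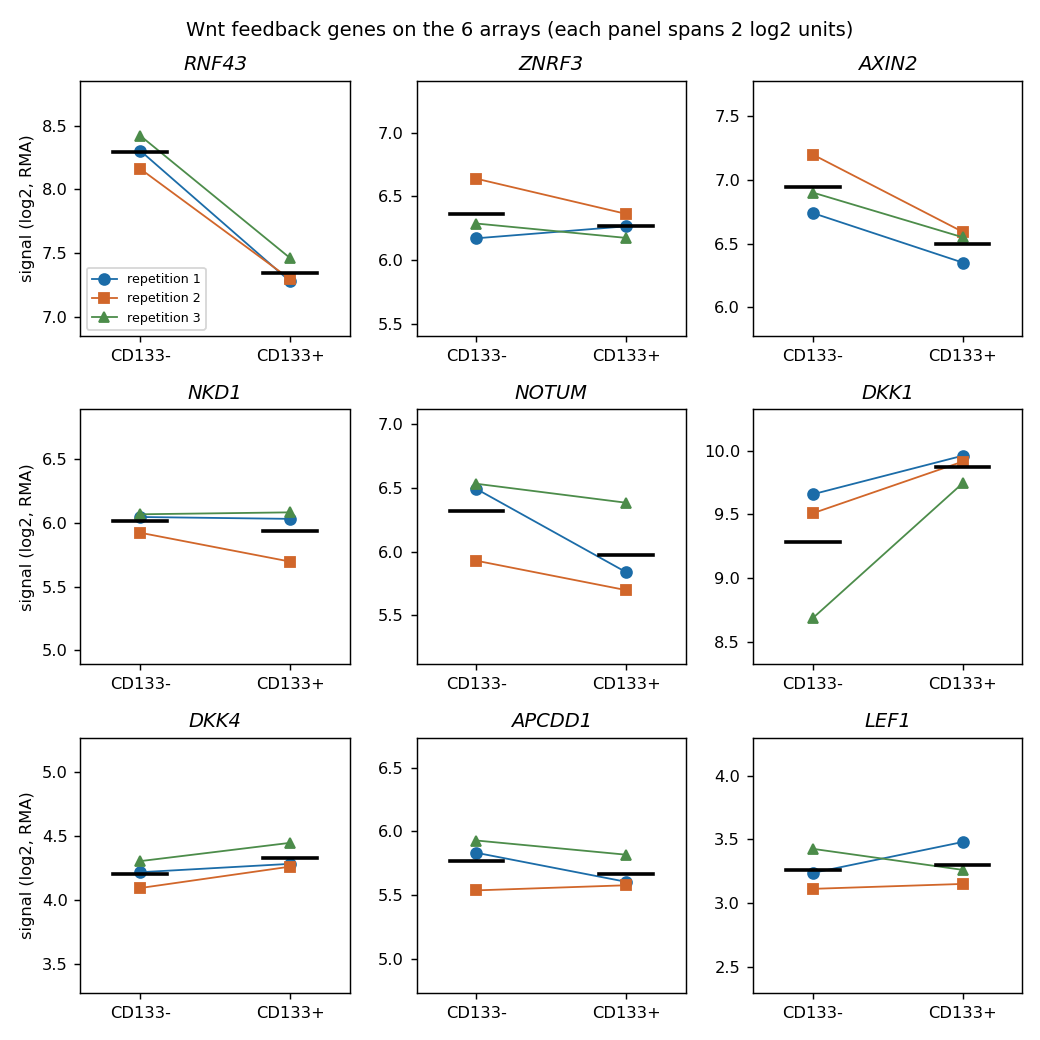
Log2 RMA signal of each measured feedback gene (vertical axis) in CD133-negative and CD133-positive cells. Each line joins the arrays of 1 repetition, black bars are group means (n = 3), and every panel spans the same number of log2 units. The 3 RNF43 lines run down together from 8.16 to 8.42 to between 7.28 and 7.46, AXIN2 runs down in each repetition, and DKK1 runs up with its lowest value, 8.69, in CD133-negative repetition 3.

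ZNRF3, the paralog of RNF43 with the same membrane ligase role, showed no difference of that size. Its probe set (8072160) read 6.27, 6.36 and 6.17 in CD133-positive repetitions 1, 2 and 3, and 6.17, 6.64 and 6.29 in the CD133-negative ones. The groups overlapped, and repetition 2 was highest in both. The log2 difference was -0.10 with a 95% interval of -0.34 to 0.14 in the block fit, with 0.09, -0.28 and -0.11 within repetitions 1, 2 and 3. The RNF43 difference minus the ZNRF3 difference was -1.12, -0.59 and -0.85 in repetitions 1, 2 and 3, a mean of -0.85 ± 0.27 (SD, n = 3). This pair was chosen after the values had been seen. RNF43 was also set against each of the 8 other members with an exact permutation test over arrays. Its p was 0.1 for every pair, the smallest that this test can give, so it does not single out ZNRF3.

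RefSeq's promoter sequences (GRCh38.p14) were available for 5 of the 10 genes, namely RNF43, DKK1, APCDD1, LEF1 and TCF7, and 7 starts in all. The RNF43 and DKK1 sequences are printed because these genes had differences of opposite sign, a choice made after the values were seen. Whether the letters bear on the differences was not tested. Each window holds 250 bases before the start of the transcript and 50 from it on. All 7 windows were searched on both strands for ATCAAAG and TTCAAAG, forms of the TCF and LEF core motif that share all but their first letter. Other forms of the core were not searched, so the matches below cover these strings only. Capitals mark a searched motif and, as a single letter, the base at the start.
RNF43 upstream start, chr17:58417485-58417784, minus strand: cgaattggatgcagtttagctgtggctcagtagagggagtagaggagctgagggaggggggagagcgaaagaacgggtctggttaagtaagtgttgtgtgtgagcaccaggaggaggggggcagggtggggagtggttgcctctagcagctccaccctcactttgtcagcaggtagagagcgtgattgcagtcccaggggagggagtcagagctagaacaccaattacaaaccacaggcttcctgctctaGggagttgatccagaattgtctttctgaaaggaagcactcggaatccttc
DKK1, chr10:52314031-52314330, plus strand: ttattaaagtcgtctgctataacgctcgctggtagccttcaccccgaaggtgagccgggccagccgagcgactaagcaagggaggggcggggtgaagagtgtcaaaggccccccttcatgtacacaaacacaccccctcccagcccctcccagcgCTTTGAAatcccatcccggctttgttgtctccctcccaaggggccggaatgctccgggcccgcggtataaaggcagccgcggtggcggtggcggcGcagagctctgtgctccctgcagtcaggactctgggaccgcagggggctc
The DKK1 window held 1 match, TTCAAAG on the opposite strand, which starts 95 bases before the transcript start and reads CTTTGAA as printed. Neither RNF43 start had a match, and the APCDD1, LEF1 and TCF7 windows had none either. Of all 35116 windows of that length, 6.86% held either motif. A match is a description of the letters and not of binding.

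AXIN2, the scaffold that limits beta-catenin, had lower values on all 3 CD133-positive arrays than on any CD133-negative array, but did not pass the test. Its probe set (8017718) read 6.35, 6.59 and 6.55 in CD133-positive repetitions 1, 2 and 3, and 6.74, 7.20 and 6.90 in the CD133-negative ones. The array of repetition 2 was the highest in both groups. The log2 difference was -0.45 (SE 0.0898 with the block, 95% interval -0.66 to -0.23), or 1.36-fold higher in CD133-negative cells. Its limma adjusted p was 0.149 with the block (unadjusted 0.00204) and 1.00 with group as the only term (unadjusted 0.0166). With the block and only probe sets above the median mean signal, a setting added after the data were seen, the adjusted p was 0.0378. In that setting 403 of 14115 probe sets passed, against 84 of 28230 with the block alone. The RNF43 difference minus the AXIN2 difference was -0.64, -0.26 and -0.61 in repetitions 1, 2 and 3.

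NKD1, the Dishevelled-binding brake, had almost the same mean in both fractions. Its probe set (7995525) read 6.03, 5.70 and 6.08 in CD133-positive repetitions 1, 2 and 3, and 6.05, 5.92 and 6.07 in the CD133-negative ones. Repetition 2 was the lowest in both groups, and the differences within repetitions 1, 2 and 3 were -0.015, -0.23 and 0.015. The log2 difference over all arrays was -0.08, with a block interval of -0.29 to 0.14.

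Among the secreted brakes, DKK1 had a difference of the opposite sign to RNF43 and AXIN2. Its probe set (7927631) read 9.96, 9.91 and 9.74 in CD133-positive repetitions 1, 2 and 3, and 9.66, 9.51 and 8.69 in the CD133-negative ones. The groups did not overlap, the nearest values being 9.74 and 9.66, and CD133-negative repetition 3 stood far below the rest. The log2 difference was 0.59 (SE 0.15 with the block, 95% interval 0.22 to 0.96), with differences of 0.30, 0.40 and 1.06 within repetitions 1, 2 and 3. It did not pass (limma adjusted p = 0.241 with the block, unadjusted 0.00760, and 1.00 with group as the only term, unadjusted 0.0433). Without CD133-negative repetition 3 the difference was 0.29, and without both arrays of repetition 3 it was 0.35.

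DKK4, a second LRP antagonist, had low signals of 4.28, 4.26 and 4.45 in CD133-positive repetitions 1, 2 and 3 and of 4.22, 4.09 and 4.30 in the CD133-negative ones (probe set 8150529). All were below the median signal of 5.53. The difference was 0.13, above 0 in 3 of 3 repetitions but with overlapping groups and a block interval of -0.07 to 0.32.

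NOTUM, the Wnt deacylase, read 5.84, 5.70 and 6.38 in CD133-positive repetitions 1, 2 and 3, and 6.49, 5.93 and 6.53 in the CD133-negative ones (probe set 8019334). Repetition 2 was the lowest in both groups, and the groups overlapped. The difference was -0.34, with -0.65, -0.23 and -0.15 within the repetitions. The limma adjusted p was 0.356 with the block (unadjusted 0.0240, 95% interval -0.63 to -0.06) and 1.00 with group as the only term (unadjusted 0.171, interval -0.87 to 0.18). The difference was -0.21 without CD133-positive repetition 2, -0.55 without CD133-positive repetition 3, -0.54 without CD133-negative repetition 2 and -0.19 without both arrays of repetition 1.

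APCDD1, the membrane inhibitor, read 5.60, 5.58 and 5.82 in CD133-positive repetitions 1, 2 and 3, and 5.83, 5.54 and 5.93 in the CD133-negative ones (probe set 8020141). Its difference of -0.10 had a block interval of -0.31 to 0.12, and repetition 2 went the other way at 0.04. LEF1 was dim on all arrays, at 3.48, 3.15 and 3.26 in CD133-positive and 3.24, 3.11 and 3.42 in CD133-negative repetitions 1, 2 and 3 (probe set 8102232). Its difference was 0.04 (block interval -0.21 to 0.28) and had no common sign over the repetitions.

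**Figure D2:**
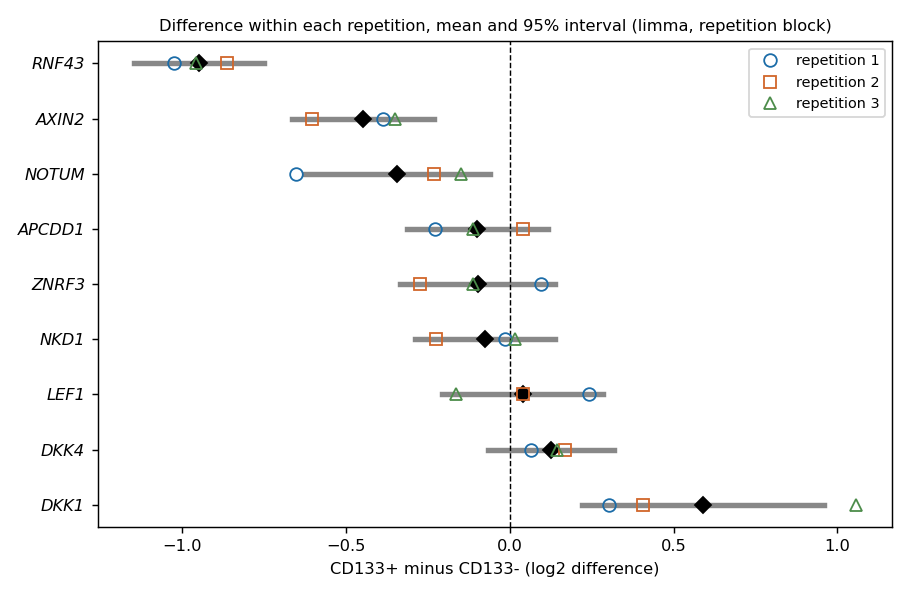
Log2 difference between CD133-positive and CD133-negative cells (horizontal axis) for each measured feedback gene, ordered by size. Open symbols are the differences within repetitions 1, 2 and 3, black diamonds their mean, and grey bars the 95% interval of the limma fit with repetition as a block. The intervals of RNF43, AXIN2 and NOTUM lie below 0, that of DKK1 above 0, and the other 5 include 0. In that fit RNF43 was the only one of the 9 with an adjusted p under 0.05.

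Together, the measured members had 6 differences below 0 and 3 above, with a median of -0.10 against -0.0064 for all genes. That median was -0.05 without CD133-negative repetition 3, -0.06 without CD133-positive repetition 2, -0.15 without CD133-positive repetition 3 and -0.0094 without both arrays of repetition 2. With only probe sets above a signal of 6, NKD1, DKK4, APCDD1 and LEF1 drop out. The median of the members left was then -0.34, the value of NOTUM. An unadjusted limma p under 0.05 with the block was found for 4 of 9 members, against 11.6% of all genes, and with group as the only term for 3 of 9 against 3.47%. The groups did not overlap for 3 of 9 members, against 7.95% of all genes. Those were RNF43 and AXIN2, lower (4.52% of all genes), and DKK1, higher (3.43%). The difference kept 1 sign in all 3 repetitions for 5 of 9 members, against 36.1% of all genes. The members were chosen with earlier results of these data known, so these counts are a description.

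The genes also differed in how much of their variation followed the sort. CD133 fraction accounted for 96.1% of the sum of squares of RNF43 over the 6 arrays, 68.0% of that of AXIN2 and 47.5% of that of DKK1. Repetition took 3.39%, 27.7% and 37.2% in these genes. For the other 6 members repetition was the larger term, from 59.6% for LEF1 to 76.3% for NKD1. Repetition has more levels than fraction, so its share tends to be larger even where neither has an effect. Over both fractions AXIN2 and ZNRF3 were highest in repetition 2 (6.90 and 6.50), whereas NKD1, NOTUM, DKK4, APCDD1, LEF1 and RNF43 were lowest there.

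**Figure D3:**
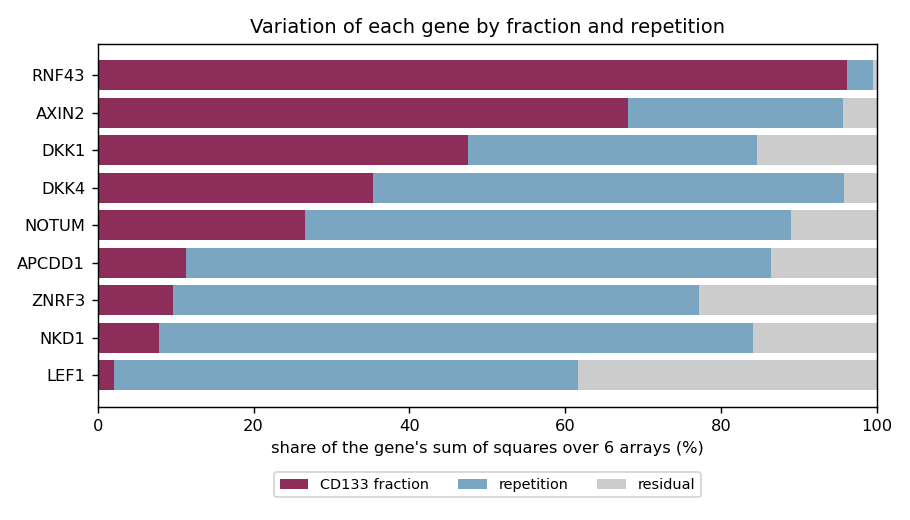
Share of each gene's sum of squares over the 6 arrays (horizontal axis, percent) that fell to CD133 fraction, to repetition and to the residual. RNF43 is almost all fraction (96.1%), AXIN2 is mostly fraction (68.0%), and repetition is the largest share for NOTUM, DKK4, APCDD1, ZNRF3, NKD1 and LEF1. Repetition has more levels than fraction, so the shares are not on equal terms.

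Over the 6 arrays, which share fraction and repetition, the RNF43 signal correlated with AXIN2 at r = 0.77, with NOTUM at 0.66 and with DKK1 at -0.78. Its r with ZNRF3 was 0.17. AXIN2 correlated with ZNRF3 at 0.71, with both highest in repetition 2, and with NOTUM at 0.19. Among 11249 other genes with a mean above the median signal, the 5 most like RNF43 were TENM3, PTTG1IP, TNNC1, SEC14L1 and MAP1B (r = 0.988 to 0.985). TENM3, a teneurin of cell contacts, and MAP1B, which stabilises microtubules, had differences of -1.70 and -1.41. PTTG1IP, TNNC1 and SEC14L1 had differences of -0.23, -0.54 and -0.53. The 5 genes most like AXIN2 were TM4SF18, ITGB5, FMNL3, CCN2 and CRIM1 (r = 0.988 to 0.978). CRIM1, a transmembrane protein that binds BMP ligands, had a difference of -0.86. TM4SF18, the matricellular gene CCN2, the integrin gene ITGB5 and the formin gene FMNL3 had -1.84, -1.31, -0.51 and -0.22. All these genes were picked for following RNF43 or AXIN2 on the same arrays. Lower values in CD133-positive cells therefore came with the choice, and no p-value is given for them.

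The rest of the pathway was read from 5 other lists with 113 measured genes. With limma, 0 of 113 were called in either fit. Of all genes, 0.369% were called with the block and 0.00543% with group as the only term. At such shares 0 calls in a list of this size do not set it apart. With the block, 17 had an unadjusted p under 0.05 (6 higher, 11 lower), where 11.6% of all genes did (5.9% and 5.73%). With group as the only term 7 did, against 3.47% of all genes. Their median difference was -0.04. In each list the 2 genes of smallest block p are named below, none of which passed, and other genes named from these lists were picked after their values were seen.

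Of the 18 receptors, which include the Frizzled proteins that RNF43 and ZNRF3 remove and the R-spondin receptors LGR4, LGR5 and LGR6, 8 were above 0 and 10 below, with a median of -0.0021 that became -0.10 without CD133-negative repetition 2 and 0.10 without CD133-negative repetition 3. FZD3, a Frizzled receptor, had a difference of 0.47, at 0.43, 0.50 and 0.49 within repetitions 1, 2 and 3. Its limma adjusted p was 0.0970 with the block and 0.797 with group as the only term. Groups did not overlap for 2 higher receptors, FZD3 and ROR2, and for 1 lower, LRP6, against 3.43% and 4.52% of all genes. ROR2, a receptor of non-canonical Wnt signals, had 0.16. LGR4, an R-spondin receptor of the complex that removes RNF43 from the surface, had -0.0035. The coreceptors LRP5 and LRP6, the targets of DKK1, had 0.14 and -0.15. Within repetitions 1, 2 and 3 LRP5 had -0.02, 0.45 and -0.02, and LRP6 had -0.05, -0.03 and -0.37.

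The 22 other secreted or membrane inhibitors and R-spondins had 8 above 0 and 14 below, with a median of -0.03 and differences from -0.18 to 0.12. WIF1, a Wnt-binding antagonist, had -0.18 and SOSTDC1, an antagonist of BMP and Wnt signals, had -0.15, both from dim signals. NKD2, the paralog of NKD1, had -0.01.

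Destruction complex and Dishevelled genes had 9 of 20 above 0, a median of -0.0045 and the range -0.21 to 0.15. The tankyrase genes TNKS and TNKS2, whose products mark AXIN proteins for degradation, had -0.21 and 0.15. AXIN1, the constitutive paralog of AXIN2, had -0.05 and CTNNB1 had 0.10.

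TCF partners and nuclear cofactors had 6 of 20 above 0 and a median of -0.08. TCF7L2, the main TCF factor of colon epithelium, had 0.45 (0.54, 0.34 and 0.47 within repetitions 1, 2 and 3, adjusted p = 0.132 with the block), and its groups did not overlap. TCF7L1, a TCF that mostly represses, had -0.30 (-0.26, -0.28 and -0.38, adjusted p = 0.247) with overlapping groups. In this list groups did not overlap for 1 gene higher and 0 lower, against 3.43% and 4.52% of all genes.

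Other Wnt target genes of colon had 12 of 34 above 0 and a median of -0.06, with differences from -0.65 to 0.72. CEMIP, a hyaluronan-binding protein, had 0.72 (0.72, 0.53 and 0.91 within repetitions 1, 2 and 3). The limma adjusted p of CEMIP was 0.0640 with the block and 0.319 with group as the only term. BMP4, a secreted BMP ligand, had -0.47 (adjusted p = 0.141). Of these 34 genes, 4 were higher and 8 lower at an unadjusted p under 0.05 with the block, where 5.9% and 5.73% of all genes were. Groups did not overlap for 3 higher and 4 lower, against 3.43% and 4.52% of all genes.

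**Figure D4:**
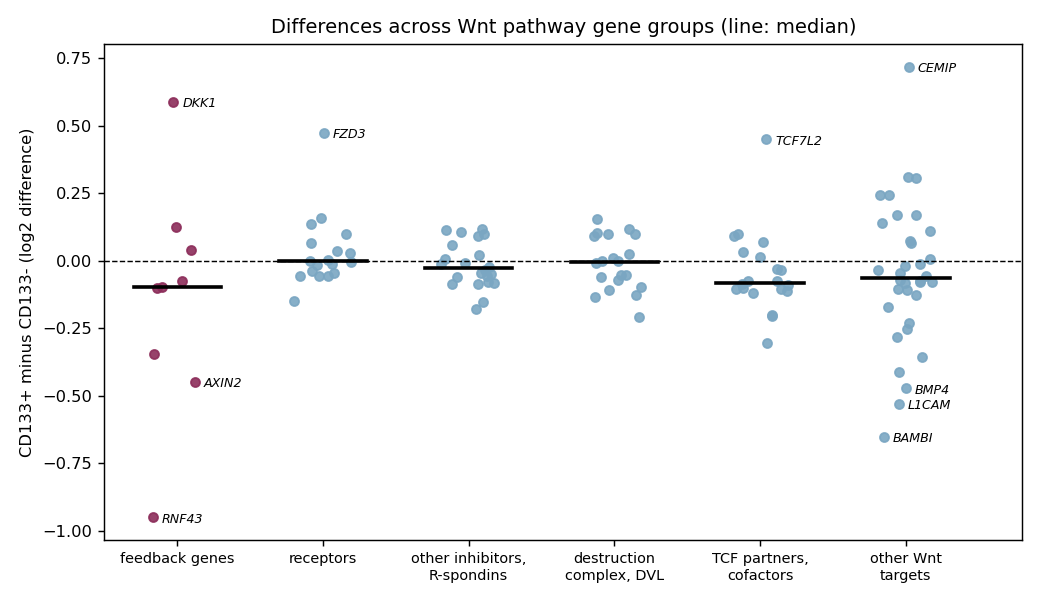
Log2 difference between CD133-positive and CD133-negative cells (vertical axis) for each measured gene, by pathway group, with the median as a black line. RNF43 at -0.95 is the lowest gene of all 6 groups and CEMIP at 0.72 the highest, and the group medians lie between -0.10 and -0.0021, values that shift when single arrays are left out. Genes with an absolute difference above 0.44 are labelled.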

How the data were processed

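The authors deposited log2 signals made with Robust Multichip Average (RMA), per the labels' design text and the submitters' processing notes, for 6 arrays (3 per group). Its version was not given in the sources used here. Values, from 1.09 to 13.7, show a log2 scale. Row identifiers match the annotation of a whole-transcript array, which was used, although the design text says U133.

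Of 32321 rows, the leading 4091, which precede the first row with a gene, were left out as controls. Of the 28230 probe sets tested, 19158 had 1 gene symbol, 1388 several and 7684 none. This left 18404 genes, each read from the probe set with the highest mean over 6 arrays. Of 166 list entries, 160 were measured. Limma 3.58.1 in R 4.3.3 (lmFit, eBayes) was fitted with group as the only term, two-sided, with Benjamini-Hochberg adjustment over all probe sets and a threshold of 0.05. Alternatives covered normalization, filters, array weights and left-out arrays. The fits were tested on simulated data.

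After group means were subtracted, arrays of the same repetition correlated at 0.447 to 0.616 (bound 0.1, 3 of 3 pairs). Values from the block fit are therefore printed beside the others. For PROM1, ZNRF3, NKD1, DKK4, APCDD1, LEF1 and most genes of the other lists, the Results give errors, intervals or p-values from the block fit only. None of these genes passed with group as the only term. This pairing comes from the data and not from the labels.

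Named were all members, PROM1, in each list the called genes or else the 2 of smallest block p, and the 5 genes most like RNF43 and AXIN2. The members and lists were chosen with earlier results of these data known. The number of arrays limits the precision.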

Additional observations from a re-analysis of the deposited data

How the results depend on the processing

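Over the 9 measured members, 181 combinations of gene and setting were run, of which 168 kept the direction and the side of the threshold, 6 passed where the reported fit did not, and 7 changed sign. The sign changed for 3 genes. For LEF1 the values were -0.0526 to 0.1224 with single arrays left out and -0.0633 without both arrays of repetition 1 in the block fit. For NKD1 they were -0.148 to 0.0450 with single arrays left out and 0.00023 without both arrays of repetition 2. For ZNRF3 they were -0.195 to 0.0382 with single arrays left out and 0.0692 with array weights. With group as the only term 0 members were called. With repetition as a replicate block 1 was called (RNF43), as with array weights, with the block and repeated quantile normalization, and with the block and median centring. With the block and the filter above the median mean 2 of the 7 members left were called, RNF43 and AXIN2. The last 3 settings were chosen after seeing the data. The filter tested 14115 probe sets in place of 28230. With the block 403 of the 14115 were called, against 84 of the 28230 without the filter. Of the genes in the 5 other lists, 0 were called as reported (7 at an unadjusted limma p under 0.05) and 0 with the block (17). The shares of all genes called in these fits were 0.00543% and 0.369%. With array weights 1 gene of these lists was called (CEMIP). With the block and that filter 6 of the 86 genes left were called. They were FZD3, TCF7L2 and CEMIP, higher, and BMP4, BAMBI and ENC1, lower. Over all probe sets limma called 1 as reported (974 at an unadjusted p under 0.05), 84 with the block, 33 with array weights, and 0 with repeated quantile normalization (1102), median centring (906), the filter at a signal of 6 (402) or control rows included (1036). Leaving out single arrays gave 0 to 2, and leaving out a whole repetition with the block gave 43 without repetition 1, 18 without 2 and 0 without 3 (2276). With the block, quantile normalization gave 67, median centring 84, the filter above the median mean 403 and control rows included 0 (3051). The array weights ran from 0.424 to 7.63, the highest for CD133-negative repetition 1. The causes were not tested. Scaling moved the median of all genes to -0.0100 (quantile) and -0.0021 (median centring) from -0.0064. On the full set of probe sets the block changed the call of RNF43 and of no other measured member; under the filter above the median mean it also changed that of AXIN2. With single arrays left out, list medians ran from -0.148 to -0.0476 for the members, -0.102 to 0.0998 for receptors, -0.0852 to 0.0482 for other inhibitors, -0.0416 to 0.0293 for the destruction complex, -0.0741 to -0.0388 for TCF partners and -0.0667 to -0.0234 for other targets, so 3 of the 6 had no stable sign.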
